A study of Mus musculus with 11 samples.

Results

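The 6 genes described here were lower in every retina of drug-treated rd10 mice than in every other retina of the study: Omg, Strip2, Rlbp1, Slitrk2, Gm16551 and Cngb3. They were chosen by their measured levels. Counts were divided by the library total and multiplied by 1000000 (CPM), and a gene was kept where its highest rd10 GSK library was at most 0.8 times the lowest of the other 8 libraries and its mean in those 8 was at least 5 CPM. Of 37991 genes in the table, 12165 reached that mean, and 6 of these were kept, or 0.0493%. The same rule turned around, with the highest of the other 8 libraries at most 0.8 times the lowest rd10 GSK library, kept 61 genes.

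One retina, from the right eye, was taken from each of 11 mice on postnatal day 24. Wild-type C57Bl/6J mice and rd10 mice (B6.CXB1-Pde6brd10/Jrd10, labelled with the same C57Bl/6J background) received daily intraperitoneal injections from day 9 to day 24 of either saline or the LSD1 inhibitor GSK2879552 at 4.2 mg/kg, called GSK below. Each animal gave 1 library: in wild type 2 had saline and 3 had GSK, and in rd10 3 had saline and 3 had GSK. Every cell of the rd10 mice carried the mutant Pde6b, and GSK was given to the whole animal.

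LSD1, made from Kdm1a, is an enzyme that removes methyl groups from histone tails and works in repressor complexes with histone deacetylases. The rd10 mouse is a model of retinitis pigmentosa: its rods die after the eyes open because the rod phosphodiesterase is faulty, and cones are lost later. Müller glia span the retina, feed and support the neurons and take part in regenerating visual pigment, and they respond to photoreceptor death by changing their gene expression.

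Libraries held 19657030 to 28053367 counts. Kdm1a averaged 89.5 ± 0.53 CPM in wild type on saline, 95.2 ± 3.51 in wild type on GSK, 93.5 ± 3.76 in rd10 on saline and 98.8 ± 4.37 in rd10 on GSK (SD, n = 2, 3, 3 and 3). Pde6b averaged 2122 ± 72.1, 2125 ± 37.7, 393 ± 51.8 and 1390 ± 352 CPM in the same order. The summed level of 20 rod markers was 78485 to 83498 CPM in wild-type libraries, 14126 to 16756 in rd10 saline, and 37677, 55926 and 68081 in rd10 GSK replicates 1, 2 and 3. The 18 lens genes, which mark lens tissue carried along in dissection, had a summed level of 704 CPM in the second wild-type saline animal (replicate 2) and of 7320 in rd10 GSK replicate 2, against at most 21.0 in the other libraries. These are whole retinas, so fewer cells of a type and less RNA per cell cannot be told apart in any value below.

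**Figure D1:**
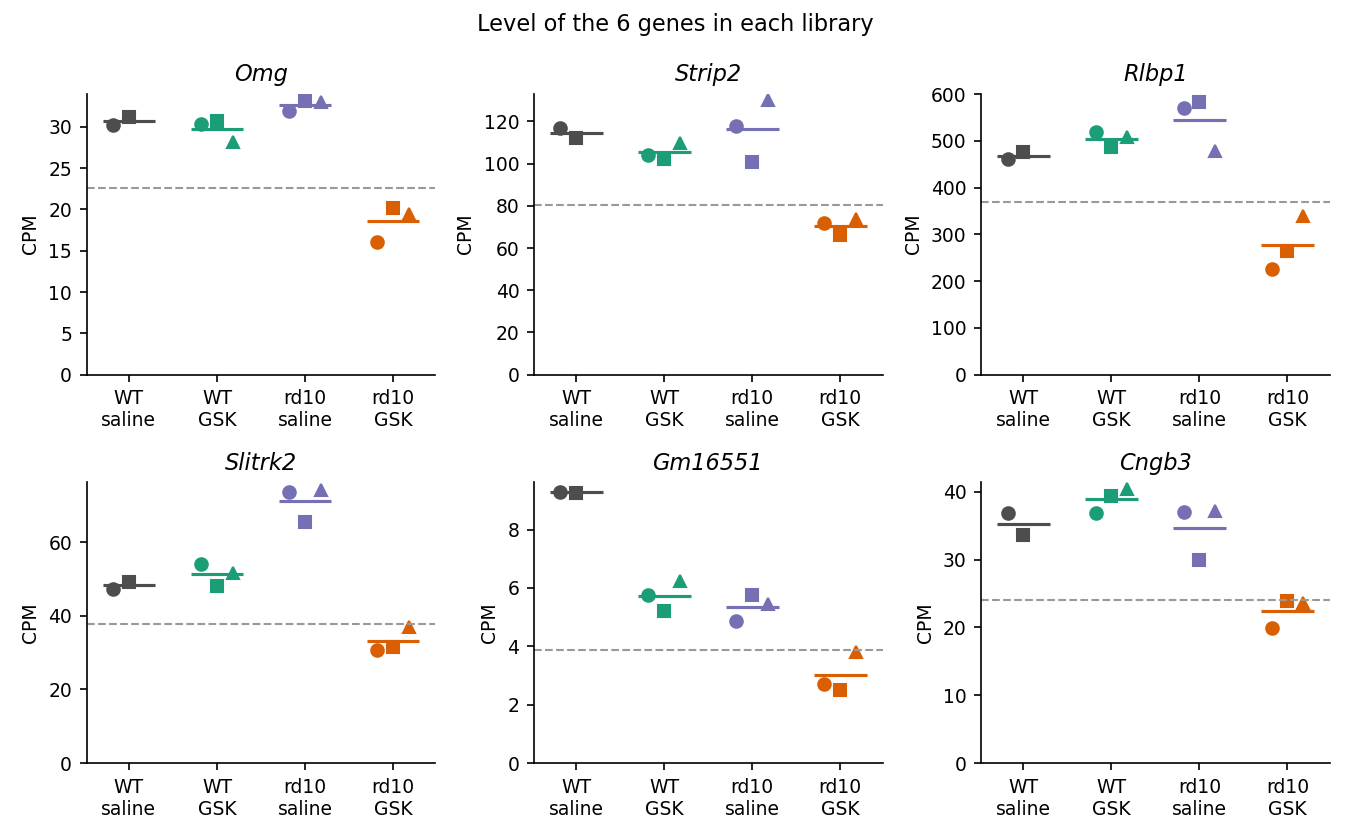
Level in CPM of the 6 kept genes in each library (points; circle, square and triangle are replicates 1, 2 and 3), with the group mean as a bar and a dashed line at 0.8 times the lowest library outside rd10 GSK. All rd10 GSK points lie on or under the line by the rule, the rd10 saline points of Slitrk2 lie above all other groups, and those of Gm16551 lie below wild-type saline.

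The 6 genes differed in what they do. Omg and Slitrk2 encode leucine-rich repeat proteins of the cell surface, Rlbp1 a retinaldehyde carrier of glia, Cngb3 a cone channel subunit and Strip2 an intracellular scaffold, while Gm16551 is annotated as a processed transcript with no protein. Measured on the count model described below, the log2 change between rd10 GSK and rd10 saline had a median of -0.72 over the 6 genes, against 0.01 over the 17099 genes tested. Against wild-type GSK the median was -0.83, and against wild-type saline it was -0.82, with 0.01 over all tested genes in both. The rule used all of these contrasts, so their values are descriptions and carry no test. The 3 comparisons share the rd10 GSK libraries.

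The rule is a narrow one, as the plot of the ratio over all genes shows. The ratio of the highest rd10 GSK library to the lowest other library had a median of 1.29 over the 12165 genes, and it was under 1 for 405 of them, or 3.33%. The kept genes had ratios of 0.716 for Omg, 0.734 for Strip2, 0.737 for Rlbp1, 0.782 for Slitrk2, 0.786 for Gm16551 and 0.796 for Cngb3. Just outside the threshold were Pde6h at 0.812, the inhibitory subunit of cone phosphodiesterase, Cabp5 at 0.823, a calcium-binding protein of bipolar cells, and Lrtm1 at 0.826. The last kept gene, Cngb3, and the first left out, Pde6h, are both cone genes.

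**Figure D2:**
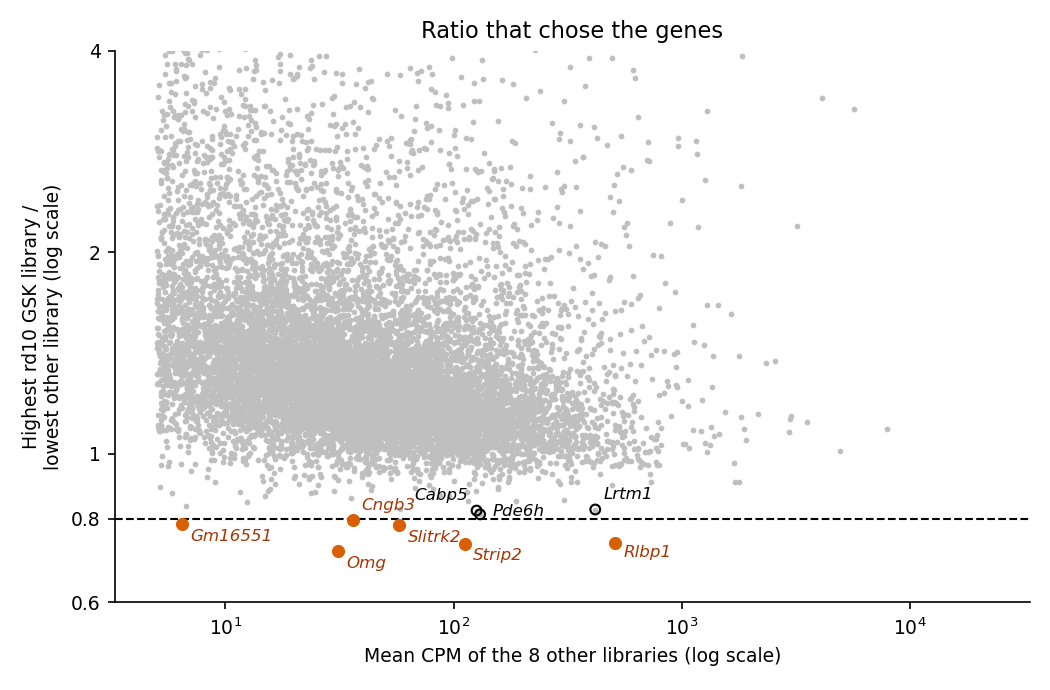
Ratio of the highest rd10 GSK library to the lowest of the other 8 libraries (log scale) against the mean CPM of those 8 (log scale), 1 grey point per gene for 11718 genes. The 6 kept genes (filled orange) lie under the dashed line at 0.8 and the 3 nearest genes outside it are ringed; 441 genes with a ratio over 4 and 6 genes with a lowest library at 0 are not drawn.

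The membership depended on how libraries were scaled. With trimmed-mean (TMM) scaling in place of column totals, 6 genes passed, of which 3 were among the kept genes (Omg, Rlbp1 and Slitrk2) and the others were Cabp5, Cspg4 and Lrtm1. With DESeq2 size factors 7 passed, with the same 3 kept genes among them. Under TMM the ratios were 0.684 for Omg, 0.765 for Rlbp1 and 0.734 for Slitrk2, while Strip2 was at 0.815, Gm16551 at 0.855 and Cngb3 at 0.877. All 6 stayed under 1 with each of the 3 scalings, so in each of them every rd10 GSK library was below every other library. That is no check of the genes. With TMM factors of 0.929 to 1.10, the rule's limit of 0.8 left no room for a ratio of 1. The share of all genes under 1 with the other 2 scalings was not computed.

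**Figure D3:**
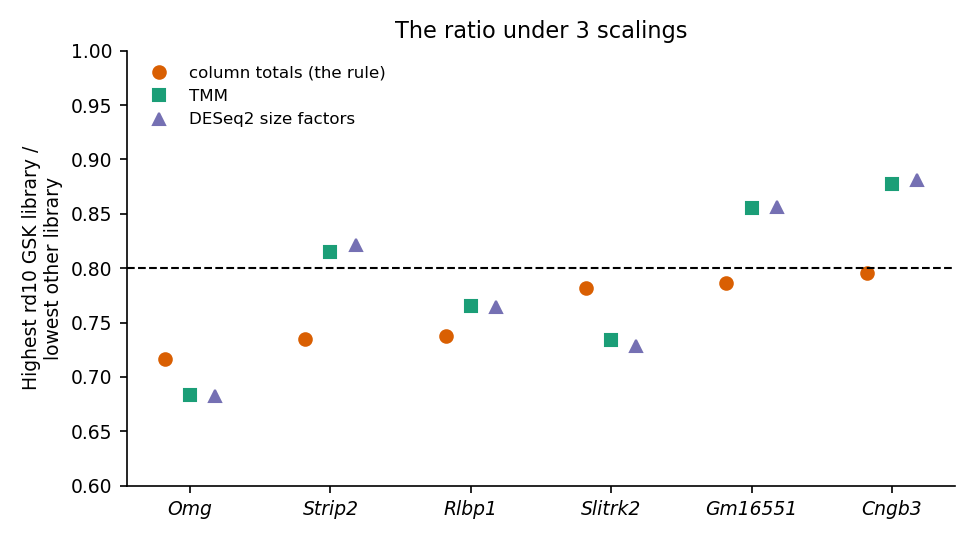
Ratio of the highest rd10 GSK library to the lowest other library for the 6 kept genes with column totals (circles, the rule), TMM (squares) and DESeq2 size factors (triangles), with the threshold of 0.8 dashed. Omg, Rlbp1 and Slitrk2 stay under the line in all 3 scalings, while Strip2, Gm16551 and Cngb3 lie above it in the other 2.

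Comparisons that leave out rd10 GSK were tested. Fold changes are log2 with a standard error after ±, from edgeR's quasi-likelihood fit to all 11 libraries with TMM scaling, with p-values adjusted over 17099 genes by Benjamini-Hochberg; genes with an adjusted p under 0.05 are written as having risen or fallen. Between rd10 saline and wild-type saline, 2 of the 6 kept genes passed, Slitrk2 upward and Gm16551 downward, where 40.5% of all genes tested passed (21.5% rose and 19.0% fell). Of the genes that passed there, 53.0% were higher in rd10 saline, and 81.2% were with column totals, which moved the median of all genes from 0.02 to 0.23. Between wild-type GSK and wild-type saline, none of the 6 passed in edgeR, 1 had an unadjusted p under 0.05, and 0.532% of all genes passed (0.444% rose and 0.0877% fell). DESeq2 called 1 of the 6 there and limma-voom called 0.

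**Figure D4:**
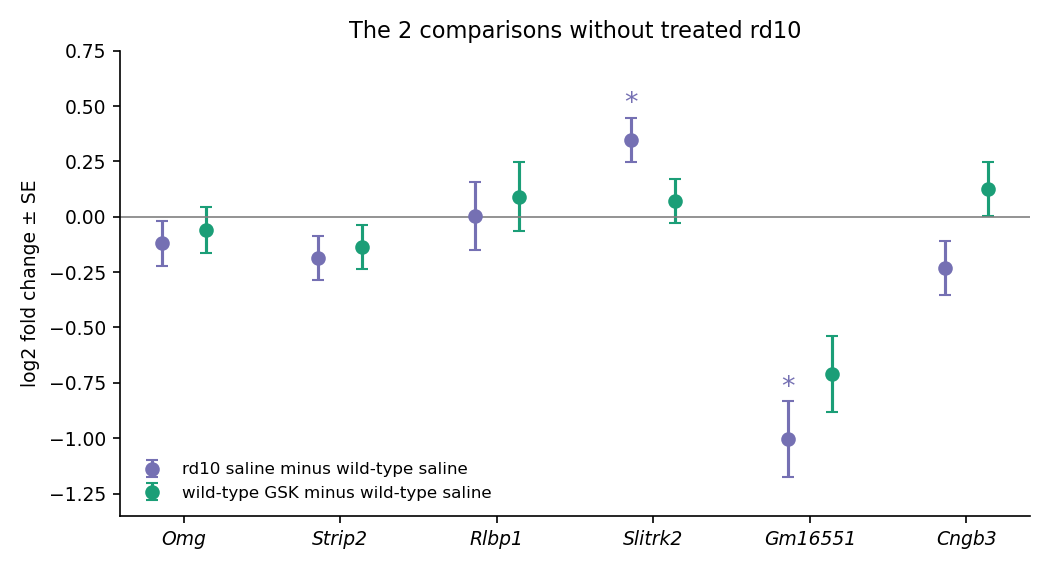
Log2 fold change of the 6 kept genes in the 2 tested comparisons, rd10 saline minus wild-type saline and wild-type GSK minus wild-type saline, with bars of 1 standard error from the edgeR fit. Asterisks mark the 2 values with adjusted p under 0.05, Slitrk2 at 0.35 and Gm16551 at -1.01, both in rd10 saline.

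Slitrk2, a postsynaptic membrane protein that organises synapses by binding receptor protein tyrosine phosphatases on the partner cell, was the kept gene whose level also rose in untreated rd10. It lies on chromosome X. Its level was 47.3 and 49.2 CPM in wild type on saline, 54.1, 48.1 and 51.6 in wild type on GSK, 73.7, 65.3 and 74.1 in rd10 on saline and 30.8, 31.5 and 37.0 in rd10 on GSK. All rd10 saline libraries were above all wild-type libraries, the wild-type groups overlapped, and all rd10 GSK libraries were below the rest. The rise in rd10 saline over wild-type saline was 0.35 ± 0.10 (edgeR adjusted p = 0.0151). With column totals the same difference was 0.56. It missed the threshold without wild-type saline replicate 1 (edgeR adjusted p = 0.0982) or replicate 2 (0.0756), without rd10 saline replicate 1 (0.0510) or replicate 3 (0.0526), and without both libraries with lens RNA (0.101). In wild type the difference with GSK was 0.07 ± 0.10 (edgeR adjusted p = 0.95). Relative to rd10 saline, Slitrk2 in rd10 GSK was lower by 1.01 ± 0.09 on the log2 scale, given as a description.

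The X-linked RNA Xist, made in female cells, was present at 728 CPM or more in 2 of 2 saline and 2 of 3 GSK libraries of wild type and in 2 of 3 saline and 1 of 3 GSK libraries of rd10, and at 0.321 CPM or less in the others. Sex was therefore not balanced between the groups. The rule sets every rd10 GSK library below every other. The low place of Slitrk2 in rd10 GSK, among libraries with or without Xist, therefore follows from the rule and is no check of sex. No wild-type saline library lacked Xist, and the part of sex in the level of Slitrk2 was not tested.

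The promoter of Slitrk2 is shown because Slitrk2 is the kept gene with a tested rise in rd10. The RefSeq table holds more than one start for it on GRCm38.p6, and the window printed is the 250 bases before the downstream start, on the plus strand at chrX:66652909-66653158. Capitals mark matches to the motifs searched, here a cyclic AMP response element TGACGTCA, the reverse complement of GGACAG (a part of the RE1 element) and the reverse complement of the GC box GGGCGG.
Slitrk2: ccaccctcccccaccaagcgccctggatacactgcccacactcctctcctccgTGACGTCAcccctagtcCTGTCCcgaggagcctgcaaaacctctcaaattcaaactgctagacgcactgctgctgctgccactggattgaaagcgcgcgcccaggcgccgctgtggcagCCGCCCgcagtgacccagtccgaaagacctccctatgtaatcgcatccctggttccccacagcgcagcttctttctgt
The response element was present in 2.40% of 15309 promoter windows of tested genes on either strand, GGACAG in 19.7% and GGGCGG in 54.6%. The 250 bases before the upstream start of Slitrk2 held none of these 3 motifs. The printed window has a GC content of 61.6%, against a median of 59.2% over all windows.

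The other 5 SLITRK genes were named because they belong to the family of Slitrk2. All 5 fell between rd10 saline and rd10 GSK, from -0.35 ± 0.08 for Slitrk5 (edgeR adjusted p = 0.00758) to -0.64 ± 0.16 for Slitrk4 (0.0102), with Slitrk1 at -0.48 ± 0.09 (0.00223), Slitrk3 at -0.55 ± 0.08 (0.000286) and Slitrk6 at -0.49 ± 0.07 (0.000297). Across all genes, 15.2% fell in that comparison and 17.6% rose, and the 5 were looked up after Slitrk2 was known. None of the 5 passed between rd10 saline and wild-type saline, where their differences ran from -0.04 for Slitrk5 to 0.19 for Slitrk3 (edgeR adjusted p from 0.0942 to 0.834). Slitrk6 averaged 49.8 ± 1.12 CPM in wild type on saline, 43.9 ± 2.78 in wild type on GSK, 56.3 ± 1.31 in rd10 on saline and 37.4 ± 1.92 in rd10 on GSK. Its difference with GSK in wild type was -0.20 ± 0.08 (edgeR adjusted p = 0.425). Given without a test, the 5 in rd10 GSK differed from wild-type GSK by -0.16 (Slitrk5) to -0.38 (Slitrk4). From wild-type saline they differed by -0.36 (Slitrk3) to -0.58 (Slitrk4). Slitrk6, Slitrk1 and Slitrk3 also had every rd10 GSK library below every other library, with ratios of 0.954, 0.977 and 0.993. Slitrk5 and Slitrk4 did not, at 1.08 and 1.12. Over all genes of the rule's level, 3.33% had a ratio under 1. The presynaptic receptors that bind SLITRK proteins, Ptprd, Ptprs and Ptprf, differed by -0.45, -0.21 and -0.43 between rd10 GSK and rd10 saline, given without a test.

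Slitrk2 was also the kept gene of a list of 64 synaptic adhesion and cell recognition genes. Of the 63 others, 27 rose and 5 fell between wild-type saline and rd10 saline, with a median of 0.21, where 21.5% of all genes rose and 19.0% fell. That count of 27 was 14 without either wild-type saline library, 8 without both libraries with lens RNA, and 43 with column totals. Between rd10 saline and rd10 GSK, where 15.2% of all genes fell, 41 of the 63 fell and 5 rose, with a median of -0.31 where the median of all genes was 0.01. Marker genes of inner retinal neurons fell in the same comparison, namely 16 of 25 for bipolar cells (median -0.38), 11 of 20 for ganglion cells (-0.29) and 11 of 23 for amacrine cells (-0.20), and 15 of 23 GABA and glycine receptor genes fell (-0.32). The summed level of the 25 bipolar markers was 3151 to 3356 CPM in wild-type libraries, 4079 to 4167 in rd10 saline and 2931 to 3101 in rd10 GSK. The part of these cell types in the levels of Slitrk2, its family and the list was not tested. Against wild-type GSK, 17 of the 63 were lower in rd10 GSK and 3 were higher, where 10.9% of all genes were lower and 15.4% higher. The count of 17 was 5 without the libraries with lens RNA, 4 with column totals, 6, 7 and 9 without wild-type GSK replicates 1, 2 and 3, and 10 and 7 without rd10 GSK replicates 1 and 2. With column totals 6 of the 63 were higher there, so the direction of the larger count turned. With GSK in wild type, 1 of the 63 rose by edgeR.

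Among the most abundant others on that list, the calsyntenin Clstn1, a transmembrane protein that organises synapses, went the opposite way: it fell by 0.67 ± 0.11 in rd10 saline (edgeR adjusted p = 0.000497) and rose by 0.37 ± 0.10 from there with GSK (0.0125). Cadm1, a synaptic cell adhesion protein, moved like Clstn1, with -0.41 ± 0.08 (0.00267) and then 0.38 ± 0.08 (0.00287). Its relative Cadm3 fell by 0.21 ± 0.05 between rd10 saline and rd10 GSK (edgeR adjusted p = 0.00884). Nrxn2, a presynaptic neurexin, rose by 0.23 ± 0.06 in rd10 saline (0.0105) and fell by 0.20 ± 0.05 with GSK in rd10 (edgeR adjusted p = 0.0136).

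Omg encodes oligodendrocyte myelin glycoprotein, a lipid-anchored protein made by oligodendrocytes and neurons that binds the Nogo receptor and limits axon growth. The mouse retina holds no myelin, since oligodendrocytes stop at the optic nerve head. Its level was 30.2 and 31.2 CPM in wild type on saline, 30.4, 30.7 and 28.2 in wild type on GSK, 31.9, 33.2 and 33.0 in rd10 on saline and 16.0, 20.2 and 19.5 in rd10 on GSK. The 8 libraries outside rd10 GSK covered a narrow range, with the wild-type groups overlapping and rd10 saline just above both. The difference between rd10 saline and wild-type saline was -0.12 ± 0.10 (edgeR adjusted p = 0.384) and its sign turned with column totals (0.09). With GSK in wild type it was -0.06 ± 0.10 (edgeR adjusted p = 0.961). In rd10 GSK the mean was 56.8% of that in rd10 saline, 62.4% of wild-type GSK and 60.5% of wild-type saline.

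Omg lies on chromosome 11 inside an intron of the neurofibromin gene Nf1, on the opposite strand, in the GENCODE annotation of GRCm38. Its exons do not overlap those of Nf1, but the sources used here do not give the strand setting of the authors' counting, so whether reads of unspliced Nf1 entered its count is unknown. Nf1 averaged 144 ± 6.16 CPM in wild type on saline, 153 ± 17.9 in wild type on GSK, 193 ± 27.6 in rd10 on saline and 156 ± 4.55 in rd10 on GSK. Nf1 in rd10 GSK differed by -0.21 from rd10 saline, by -0.07 from wild-type GSK and by 0.00 from wild-type saline on the log2 scale, given without a test, and its part in the level of Omg was not tested. Evi2 and Evi2a, which also lie within Nf1, were low, at 3.34 ± 1.0 and 2.77 ± 0.53 CPM in rd10 saline and under those means in the other groups.

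Other ligands and receptors of the same pathway were looked up after the 6 genes were known and carry no test. Between rd10 GSK and rd10 saline, Rtn4, the gene of Nogo itself, differed by -0.26, the receptor genes Rtn4r and Rtn4rl1 by -0.41 and -0.36, and the coreceptor Lingo1 by -0.40. The coreceptor Ngfr was at 67.7 ± 7.7 CPM in rd10 saline and 80.3 ± 3.2 in rd10 GSK, a difference of 0.34. Rtn4rl2 and Tnfrsf19, looked up with them, differed by 0.07 and -0.26. Against wild-type saline, the differences in rd10 GSK were -0.34 for Rtn4, -0.52 for Rtn4r, -0.14 for Rtn4rl1 and -0.19 for Lingo1. They were 0.34 for Ngfr, 0.16 for Rtn4rl2 and -0.30 for Tnfrsf19. Rtn4r was also lower in wild-type GSK than in wild-type saline, at -0.56, and differed by 0.04 between rd10 GSK and wild-type GSK. Mag, a myelin ligand of the Nogo receptor, was at 1.02 ± 0.15 CPM in rd10 GSK and lower in the other groups.

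Rlbp1 encodes CRALBP, the retinaldehyde-binding protein of Müller glia and of the retinal pigment epithelium, which holds the retinaldehyde that visual pigment needs. Its level was 461 and 476 CPM in wild type on saline, 518, 487 and 509 in wild type on GSK, 570, 583 and 479 in rd10 on saline and 225, 265 and 340 in rd10 on GSK. Every wild-type GSK library was above both wild-type saline libraries, rd10 saline overlapped wild-type GSK, and rd10 GSK was apart from all. The difference between rd10 saline and wild-type saline was 0.00 ± 0.15 (edgeR adjusted p = 0.988), or 0.22 with column totals. With GSK in wild type it was 0.09 ± 0.16 (edgeR adjusted p = 0.961). In rd10 GSK the mean was 50.9% of that in rd10 saline and 59.1% of that in wild-type saline.

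The promoter of Rlbp1 is shown as that of the most abundant kept gene in CPM. The window is the 250 bases before its start on the minus strand, at chr7:79387028-79387277 of GRCm38.p6 in RefSeq, written 5′ to 3′ along the gene. Capitals mark GGACAG and the reverse complement of the TATA box TATAAA.
Rlbp1: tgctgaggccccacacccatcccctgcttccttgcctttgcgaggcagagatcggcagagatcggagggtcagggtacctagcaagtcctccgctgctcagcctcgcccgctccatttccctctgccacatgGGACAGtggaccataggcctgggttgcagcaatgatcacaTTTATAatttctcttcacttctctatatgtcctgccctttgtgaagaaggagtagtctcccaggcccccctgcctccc
The TATA box letters occurred in 6.89% of the 15309 windows. No match to TAATCC, the core bound by the photoreceptor factors CRX and OTX2 and found in 5.47% of windows, was in this window.

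The other Müller glia genes are given beside Rlbp1 as a list. Of the 20 others on the list, 13 rose and 1 fell between wild-type saline and rd10 saline, where 21.5% of all genes rose and 19.0% fell. The median over the 20 was 0.73, and Rlbp1 was at 0.00. Between rd10 saline and rd10 GSK, 10 of the 20 fell and 1 rose, with a median of -0.50, where 15.2% of all genes fell and 17.6% rose. Against wild-type GSK, 5 were higher and 4 lower in rd10 GSK, with a median of -0.03, where 15.4% of all genes were higher and 10.9% lower. The 4 became 1 without the libraries with lens RNA and 7 without rd10 GSK replicate 3. The summed level of the 20 genes was 7488 to 8521 CPM in wild-type libraries, 13094 to 15360 in rd10 saline and 8452 to 8748 in rd10 GSK. Rlbp1 lies below its wild-type range by the rule. The other genes of the list were looked up after their values were seen. Car2, Glul, Gpr37 and Spc25 also had every rd10 GSK library below every wild-type library. Others had every rd10 GSK library above every wild-type library, namely Apoe, Clu, Crym, Dkk3, Id3, Notch1, Slc1a3, Sox9 and Vim. The share of all genes placed in either way was not computed. With GSK in wild type the median over the 20 was 0.16.

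Apoe, a lipid carrier made by glia, rose by 1.92 ± 0.14 in rd10 saline (edgeR adjusted p = 3.93e-06) and fell by 1.43 ± 0.12 with GSK in rd10 (1.62e-05). Dkk3, a secreted glycoprotein, rose by 0.73 ± 0.07 (1.21e-05) and fell by 0.57 ± 0.06 (edgeR adjusted p = 4.76e-05). Clu, a secreted chaperone, rose by 1.84 ± 0.25 in rd10 saline (edgeR adjusted p = 0.000415) and had a difference of -0.53 ± 0.21 with GSK in rd10 (0.0807). Glul, the glutamine synthetase of Müller glia, was at 991, 1611 and 2770 CPM in rd10 GSK replicates 1, 2 and 3, the same order of animals as Rlbp1. Its difference between rd10 GSK and rd10 saline was -0.47 ± 0.31 (edgeR adjusted p = 0.298), and its libraries overlapped between those groups. The order of animals was not common to the list. Abca8a, Acsl3, Car14 and Spc25 shared it, Aqp4, Clu, Crym, Notch1, Slc1a3 and Vim had the reverse order, and the others had neither. Clu, for example, was at 1874, 1829 and 979 CPM.

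Other genes of the visual cycle were looked up after the kept genes were known and are given without a test. Rdh12, Rdh8 and Abca4, which act in photoreceptors, differed by 1.58, 1.36 and 1.60 between rd10 GSK and rd10 saline, the opposite sign to Rlbp1. Rdh10, a retinol dehydrogenase of Müller glia and pigment epithelium, differed by -0.53, with 142 ± 8.8 CPM in rd10 saline and 92.6 ± 40.3 in rd10 GSK. Rpe65, which marks the pigment epithelium, was at 14.3 ± 9.0 CPM in wild type on saline, 32.6 ± 4.1 in wild type on GSK, 4.18 ± 2.1 in rd10 on saline and 7.18 ± 5.4 in rd10 on GSK. The summed level of 12 pigment epithelium and choroid markers was 82.6 and 192 CPM in wild type on saline, 211 to 276 in wild type on GSK, 53.4 to 133 in rd10 on saline and 115 to 171 in rd10 on GSK. The sums of rd10 GSK overlapped those of rd10 saline and of wild-type saline and lay below those of wild-type GSK, and their part in the level of Rlbp1 was not tested.

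Cngb3 encodes the modulatory subunit of the cone cyclic nucleotide-gated channel, the channel that closes when cones see light, and its loss causes achromatopsia. Its level was 36.8 and 33.6 CPM in wild type on saline, 36.8, 39.4 and 40.4 in wild type on GSK, 36.9, 30.0 and 37.2 in rd10 on saline and 19.9, 23.8 and 23.6 in rd10 on GSK. The rd10 saline and wild-type saline libraries overlapped, wild-type GSK lay just above wild-type saline, and rd10 GSK was apart. The difference between rd10 saline and wild-type saline was -0.23 ± 0.12 (edgeR adjusted p = 0.156), and with GSK in wild type it was 0.13 ± 0.12 (0.896). In rd10 GSK the mean was 64.7% of that in rd10 saline and 57.7% of that in wild-type GSK.

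Its channel partner Cnga3, the principal cone subunit, averaged 21.1 ± 0.66 CPM in wild type on saline, 22.9 ± 0.77 in wild type on GSK, 24.8 ± 1.31 in rd10 on saline and 17.9 ± 1.0 in rd10 on GSK. Cnga3 fell by 0.38 ± 0.07 between rd10 saline and rd10 GSK (edgeR adjusted p = 0.00160) and was lower by 0.46 ± 0.07 in rd10 GSK than in wild-type GSK (0.00120). Not all cone genes looked up with it were lower. The cone phosphodiesterase gene Pde6c differed by -0.07 ± 0.17 between rd10 GSK and rd10 saline (edgeR adjusted p = 0.794). Against wild-type GSK it differed by -0.25 ± 0.16 (edgeR adjusted p = 0.305). Pde6h differed by -0.42 ± 0.09 between rd10 GSK and rd10 saline, with 134 ± 4.59 CPM in rd10 saline and 93.2 ± 10.6 in rd10 GSK. Pde6h was named for its ratio just outside the threshold, so this value is a description with no test. The rod channel genes went the other way, with differences of 1.56 for Cnga1 and 1.40 for Cngb1 between rd10 GSK and rd10 saline, given without a test.

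Of the 13 other genes on the cone list, 4 fell and 2 rose between rd10 saline and rd10 GSK, with a median of -0.17, where 15.2% of all genes fell and 17.6% rose. Without rd10 GSK replicate 1, 4 rose. Against wild-type GSK, 7 were lower and 1 was higher, where 10.9% of all genes were lower and 15.4% higher. Between wild-type saline and rd10 saline, 1 rose and 3 fell, where 21.5% of all genes rose and 19.0% fell, and 5 fell without rd10 GSK replicate 1. The 2 that rose with GSK in rd10 and the 3 that fell in rd10 saline were close to the shares over all genes. With GSK in wild type the median over the 13 was 0.13. The sum of the 13 genes was 2411 to 2870 CPM in wild-type libraries, 2185 to 2512 in rd10 saline and 2003 to 2472 in rd10 GSK, so the groups overlapped. Guca1a, a guanylate cyclase activator of rods and cones, rose by 1.60 ± 0.29 with GSK in rd10 (edgeR adjusted p = 0.00385). Thrb, also on the list, rose by 0.43 ± 0.10 (edgeR adjusted p = 0.00504). The differences of the opsins Opn1sw and Opn1mw were -0.04 ± 0.36 (edgeR adjusted p = 0.955) and 0.41 ± 0.20 (0.149). Gnb3, a G protein subunit of cones and bipolar cells, rose by 1.02 ± 0.19 in rd10 saline (edgeR adjusted p = 0.00218), with a difference of -0.18 ± 0.16 (0.435) from there with GSK.

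**Figure D5:**
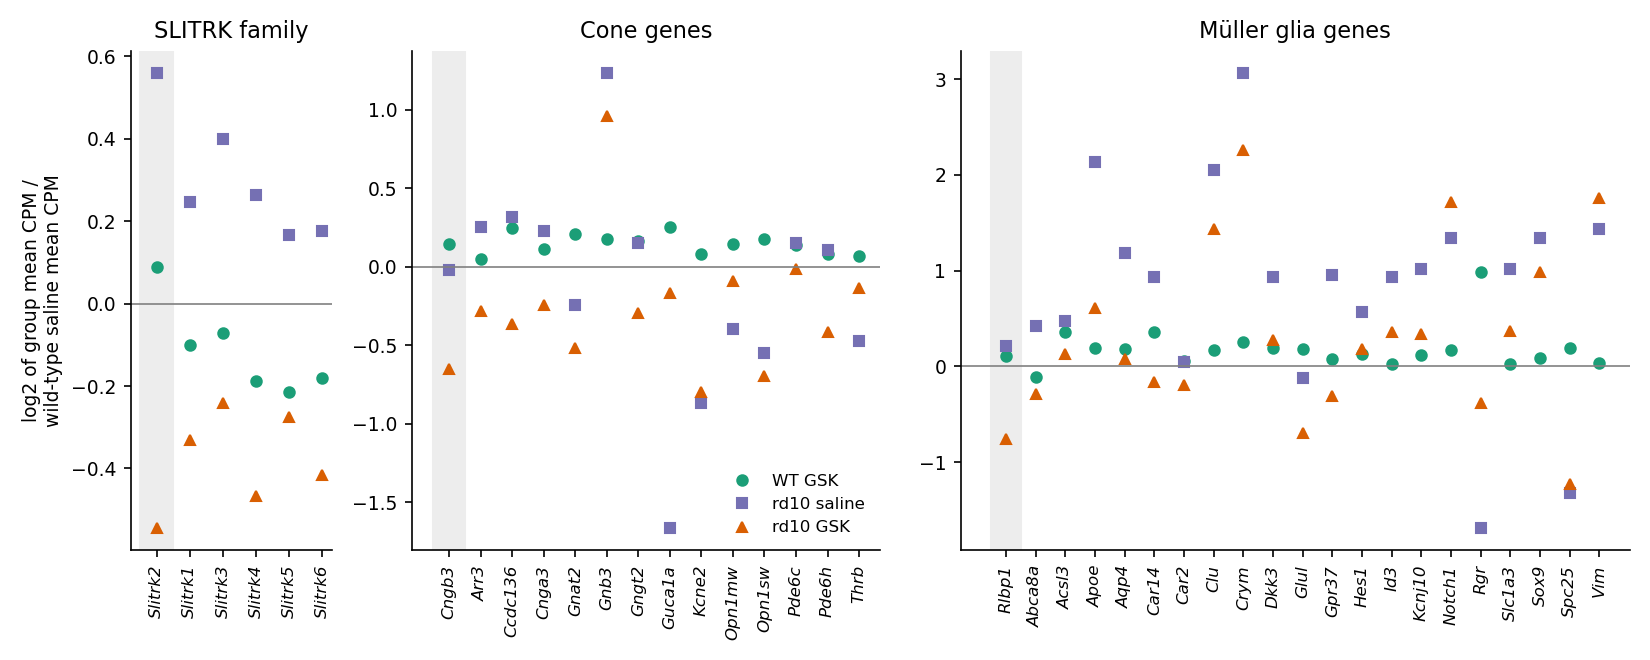
Log2 ratio of each group's mean CPM (column totals) to the wild-type saline mean for the SLITRK family, the cone list and the Müller glia list, with the kept gene of each shaded (circles, wild-type GSK; squares, rd10 saline; triangles, rd10 GSK; no error bars). In each panel the triangle of the kept gene lies below its square and its circle, while other genes of the cone and Müller glia lists vary in order.

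Strip2 encodes a striatin-interacting protein of the STRIPAK complex, which joins protein phosphatase 2A to kinases. Its level was 117 and 112 CPM in wild type on saline, 104, 102 and 110 in wild type on GSK, 118, 101 and 130 in rd10 on saline and 71.7, 66.2 and 73.9 in rd10 on GSK. The rd10 saline libraries were the most spread and overlapped both wild-type groups, wild-type GSK was below wild-type saline without overlap, and rd10 GSK was apart. The difference between rd10 saline and wild-type saline was -0.19 ± 0.10 (edgeR adjusted p = 0.158). It passed without rd10 saline replicate 3, at -0.29 (edgeR adjusted p = 0.0261), and its sign turned with column totals (0.02). With GSK in wild type it was -0.14 ± 0.10 (edgeR adjusted p = 0.816). In rd10 GSK the mean was 60.7% of that in rd10 saline.

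The promoter of Strip2 is shown because its window holds repeated elements. The window is the 250 bases before the start on the plus strand at chr6:29916763-29917012 of GRCm38.p6 in RefSeq, and capitals mark 2 copies of CCAAT and 2 of GGGCGG.
Strip2: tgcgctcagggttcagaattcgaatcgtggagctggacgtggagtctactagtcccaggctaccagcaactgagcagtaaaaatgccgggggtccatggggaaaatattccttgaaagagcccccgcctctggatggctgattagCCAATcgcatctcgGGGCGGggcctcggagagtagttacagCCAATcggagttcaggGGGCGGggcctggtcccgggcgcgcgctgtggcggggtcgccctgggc
CCAAT was present, in any number of copies, in 34.4% of windows on either strand and GGGCGG in 54.6%. The share of windows with 2 copies was not computed. Over the 4 kept genes with an entry in the table, Strip2, Rlbp1, Slitrk2 and Gm16551, and their 5 windows, no match was found to TTCAGCACC (another part of RE1), AAATCA (the GFI1 core) or TGANTCA (AP-1), which were in 0.340%, 8.01% and 4.62% of all windows. CANNTG, the E-box, was searched too and occurred in 58.5% of windows.

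Some other STRIPAK genes were looked up after the kept genes were known and are given without a test. The striatins Strn, Strn3 and Strn4 differed by 0.13, 0.01 and -0.09 between rd10 GSK and rd10 saline, and the phosphatase subunits Ppp2r1a and Ppp2ca by -0.21 and -0.08. Slmap, a membrane anchor of the complex, differed by -0.53, from 341 ± 12.0 CPM in rd10 saline to 221 ± 0.33 in rd10 GSK, and stood at 210 ± 3.7 in wild-type saline. Strip2 was lower in rd10 GSK than in both wild-type groups, while the mean of Slmap there was near its wild-type means. Stk25 also had every rd10 GSK library below every other library, with a ratio of 0.939. It differed by -0.11 from rd10 saline, -0.29 from wild-type GSK and -0.36 from wild-type saline. That placement was not particular to Stk25 among the genes looked up. Rtn4, Cnga3 and Gpr37, for example, had it too, with ratios of 0.907, 0.918 and 0.855. For the other STRIPAK genes looked up, the rd10 GSK libraries were not all below the rest.

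Gm16551, a long noncoding RNA on chromosome 9, was the kept gene that was not low in treated rd10 alone. Its level was 9.29 and 9.25 CPM in wild type on saline, 5.76, 5.20 and 6.23 in wild type on GSK, 4.86, 5.75 and 5.43 in rd10 on saline and 2.72, 2.49 and 3.82 in rd10 on GSK, from 54 to 223 counts per library. Both wild-type saline libraries were above all others, wild-type GSK and rd10 saline overlapped, and rd10 GSK was the lowest. It fell by 1.01 ± 0.17 in rd10 saline relative to wild-type saline (edgeR adjusted p = 0.000778). The difference with GSK in wild type was -0.71 ± 0.17 (edgeR unadjusted p = 0.00138, adjusted p = 0.119). That difference passed with DESeq2 (adjusted p = 0.0389), with edgeR on the 2 compared groups alone (0.000675) and without rd10 GSK replicate 3 (0.0191). Relative to wild-type saline, Gm16551 in rd10 GSK was lower by 1.73 ± 0.18 on the log2 scale, as a description.

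Gm16551 lies upstream of Onecut1, a transcription factor gene of horizontal and ganglion cells: 1786 bases lie between them on the same strand. Onecut1 averaged 2.51 ± 0.15 CPM in wild type on saline, 2.35 ± 0.25 in wild type on GSK, 2.74 ± 0.93 in rd10 on saline and 2.22 ± 0.25 in rd10 on GSK, and all 4 groups overlapped. Between rd10 saline and wild-type saline the difference of Onecut1 was -0.08. Gm16551 also shares exon sequence with Gm20649, which had no counts in any library, so how the counting split reads between them is uncertain. The summed level of 10 horizontal cell markers, which include Onecut1, was 638 to 669 CPM in wild-type libraries, 727 to 777 in rd10 saline and 560 to 620 in rd10 GSK. Its part in the level of Gm16551 was not tested.

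Within rd10 GSK the 3 animals were not alike. Replicate 1 had the lowest level for 4 of the 6 genes (Omg, Rlbp1, Slitrk2 and Cngb3) and replicate 2 for the other 2. Replicate 3 had the highest level for 4 of the 6 and also the highest sum of rod markers, and replicate 1 the lowest. As a share of the wild-type saline mean, Rlbp1 was at 48.1%, 56.7% and 72.6% in replicates 1, 2 and 3, where rod markers were at 45.3%, 67.2% and 81.8%. Strip2 was at 62.7%, 57.9% and 64.7% in the same animals. The part of the rod share in these values was not tested. Without replicate 3 the rule kept 23 genes in place of 6, and without both libraries with lens RNA it kept 9. All 6 were kept in both cases, as leaving libraries out can only lower the ratio.

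The 6 genes lie on 6 chromosomes (4, 6, 7, 9, 11 and X) and 5 of them are protein coding, where 89.5% of tested genes with an annotation are. Their median gene length was 12.2 kb, against 21.8 kb over tested genes, with Cngb3 the longest at 229.8 kb and Omg the shortest at 3.10 kb. Their median exonic length was 4208 bases, against 4133. Of the 39 gene lists examined, 3 held a kept gene, and none of the lists of sodium, calcium or potassium channels, transmitter receptors, vesicle release, axon guidance or histone enzymes did.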

How the data were processed

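Retinal RNA of 11 mice was sequenced from polyA-selected stranded libraries. The authors deposited whole-number counts per gene for 37991 genes, and per the submitters' processing notes reads were converted with bcl2fastq, aligned with HISAT2 2.1.0, counted with HTSeq and analysed with edgeR on the builds NCBIM37 and mm9. The sources used here give neither the version nor the strand setting of HTSeq.

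The 6 genes, the gene lists and the tests were chosen with earlier results of these data known. Levels are CPM on column totals, as the rule has them. Fold changes come from edgeR 4.0.16 in R 4.3.3 (TMM, filterByExpr with a minimum count of 10 and total of 15, robust quasi-likelihood F test, 1 fit to all 11 libraries), with p-values adjusted by Benjamini-Hochberg over 17099 genes and a threshold of 0.05. The common biological coefficient of variation was 0.129. Each library is 1 animal, and every comparison with wild-type saline rests on 2. The procedure was tested on simulated data. limma 3.58.1 (voom), DESeq2 1.42.0, other scalings, thresholds and filters, a replicate block and leaving out libraries were tried as alternatives. Genes named were Kdm1a and Pde6b, the 6 kept genes, the 3 genes nearest the threshold on each side, and up to 4 abundant genes of each list holding a kept gene. Families and neighbours of the kept genes and some further genes of these lists were added after their values were seen. Names (32919 of 37991 identifiers matched), lengths and overlaps come from GENCODE M21 and promoters from RefSeq, both on GRCm38.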

Additional observations from a re-analysis of the deposited data

Results flagged for a closer look

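Rlbp1 stood out among the kept genes, the only ones screened for this, because GSK went with opposite differences in the 2 genotypes. Its mean in wild-type GSK was 1.08 times that in wild-type saline, with all 3 treated libraries above both saline libraries. Its mean in rd10 GSK was 0.509 times that in rd10 saline, with all 3 treated libraries below all 3 saline libraries by the rule. The wild-type libraries were also apart with TMM scaling. The opposite signs were not particular to Rlbp1, though the levels differed. The summed level of the 20 other Müller glia genes was 7488 and 7519 CPM in wild-type saline and 8385 to 8521 in wild-type GSK. In rd10 that sum was 13094 to 15360 CPM on saline and 8452 to 8748 on GSK. The sum in rd10 GSK was 113% to 117% of the wild-type saline mean, while the mean of Rlbp1 there was 59.1%. Abundant genes weigh most in the sum. Glul averaged 2893 CPM in wild-type saline and 3292 in wild-type GSK, and Apoe 2721 in rd10 saline and 944 in rd10 GSK. Cngb3 stood out in the same way as Rlbp1, at 1.105 times in wild type and 0.647 times in rd10, but its wild-type libraries overlapped with TMM scaling. The difference between the genotypes was not tested for either gene, since the rule that chose them used the rd10 GSK libraries, and neither wild-type difference passed the edgeR test.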

How the results depend on the processing

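The number of genes kept was 3 with a ratio of 0.75, 12 with 0.85, 45 with the ratio taken between group means (added after the data were seen), and 6 to 23 with 1 library left out. For rd10 saline against wild-type saline, 6919 genes passed, 4081 without the 2 libraries with lens RNA and 4435 to 7506 with 1 library left out; of the 6 kept genes 2 passed, 1 without the lens-bearing libraries and 1 to 2 with 1 library left out. For wild-type GSK against wild-type saline, 91 genes passed, 193 with DESeq2, 52 with limma-voom, 38 with the replicate block, 916 with the compared groups alone, 12 without the lens-bearing libraries and 12 to 182 with 1 library left out; of the 6 kept genes 0 passed, 1 with DESeq2, 1 with the compared groups alone and 0 to 1 with 1 library left out.

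The median differences of the 6 kept genes ranged from -0.86 to -0.61, from -0.89 to -0.73 and from -0.88 to -0.72 with 1 library left out, for rd10 GSK against, in turn, rd10 saline, wild-type GSK and wild-type saline. Column totals in place of TMM moved the share of calls that were higher from 53.6% to 33.9% for rd10 GSK against rd10 saline, and from 58.5% to 81.0% for rd10 GSK against wild-type GSK. Of 15 same-numbered pairs of libraries, 6 correlated above 0.1 (-0.192 to 0.390), and the highest was between the libraries with lens RNA. Differently numbered pairs were not compared, so whether replicate numbers pair the libraries is not settled. With the replicate block 6601 genes passed in rd10 saline against wild-type saline, with 3 of the kept genes, since Strip2 then passed (-0.25, edgeR adjusted p = 0.0188).

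The 2 wild-type saline animals limit both tested comparisons, and a difference that did not pass is not shown to be absent. Sex, litter and dissection date were not in the model. At 54 to 223 counts, Gm16551 carries more counting error than the other kept genes.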
